A study of Mus musculus with 16 samples.

Results

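The respiratory chain subunits encoded in the nucleus were followed through peripheral blood mononuclear cells (PBMCs) of a mouse model of heart failure with preserved ejection fraction. Members were chosen by symbol alone: Nduf names with the letters a, b, c, s or v and a number, Sdha to Sdhd, and names beginning with Uqcr, Cox4 to Cox8 or Atp5, with 4 names marked -ps left out. This gave 90 of the 51179 genes listed, namely 42 of complex I, 4 of complex II, 8 of complex III, 18 of complex IV and 18 of complex V. All mice were C57BL/6N, and the 16 libraries fell into 3 groups. The HFD+L-NAME+NO2-OA group (n = 6) received a high-fat diet together with L-NAME, which inhibits nitric oxide synthase, over 15 weeks, and NO2-OA (nitro-oleic acid) during the last 4 weeks. The HFD+L-NAME group (n = 5) had diet and inhibitor without NO2-OA, and the chow group (n = 5) ate regular chow. The labels give neither age nor sex and do not state that each library is a different mouse, so p-values measure the spread between libraries. Values are in TPM, a transcript abundance that is scaled for gene length and sums to the same total in each library.

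Complex I (NADH dehydrogenase) and complex II (succinate dehydrogenase) pass electrons to coenzyme Q, complex III (cytochrome bc1) passes them on to cytochrome c, and complex IV (cytochrome c oxidase) hands them to oxygen. Complexes I, III and IV pump protons across the inner mitochondrial membrane, and complex V (ATP synthase) uses the gradient to make ATP. Both the nucleus and the mitochondrial genome encode parts of complexes I, III, IV and V, whereas complex II is wholly nuclear. Among blood cells, lymphocytes and monocytes hold mitochondria, platelets hold a few, and mature mouse red cells hold none.

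Reads recovered from the steps of the TPM values numbered 4.94 to 25.48 M per library (M for 1000000), and a tested subunit had a median of 230.5 reads in a library. Less than 25% of TPM lay in protein-coding genes in 3 libraries, HFD+L-NAME+NO2-OA replicate 2 (15.9%), HFD+L-NAME replicate 5 (15.1%) and chow replicate 3 (22.1%), against 39.1 to 56.4% in the others. Haemoglobin genes took 1.10 to 30.7% of TPM in HFD+L-NAME+NO2-OA, 0.882 to 11.7% in HFD+L-NAME and 0.141 to 7.67% in chow libraries. Alox15, a gene of resident peritoneal macrophages, was above 10 TPM in HFD+L-NAME replicates 1 and 5 and in chow replicates 1 and 2. Library names carry numbers in 2 runs: the higher run held these 4 libraries and HFD+L-NAME+NO2-OA replicate 2, and the lower run, up to 2200, held the other 11. Markers of T cells, B cells, NK cells and monocytes were detected in all 3 groups, as were those of platelets, red cells and neutrophils, so the cells were a mixture. In such a mixture, fewer cells of a type and less RNA per cell cannot be told apart.

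The promoters of 6 members are printed here because the results turn on these genes: Sdha, Uqcrc1 and Cox8a carry motifs typical of respiratory genes, and Cox5a, Ndufa1 and Atp5if1 are the subunits that varied most between libraries. RefSeq promoters on GRCm38.p6, from 250 bases before to 50 after the start, were matched for 71 of the 90 members, and each sequence runs 5′ to 3′ on the strand of its gene. Capitals mark matches on either strand to the NRF1 motif (GCGCA, any base, GCGC), the ETS motif CCGGAAG that GABPA binds, or the YY1 motif GCCATNTT. These factors are known to drive many nuclear genes of the chain. The first promoter, of the catalytic subunit Sdha, lies at chr13:74350191-74350490 on the minus strand and holds 3 NRF1 matches.
Sdha: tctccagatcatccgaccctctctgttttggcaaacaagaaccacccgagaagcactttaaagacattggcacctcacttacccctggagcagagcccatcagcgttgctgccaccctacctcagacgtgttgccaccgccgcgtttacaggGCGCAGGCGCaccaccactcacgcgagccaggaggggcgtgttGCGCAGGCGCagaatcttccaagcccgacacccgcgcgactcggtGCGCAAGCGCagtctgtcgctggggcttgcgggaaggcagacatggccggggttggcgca
That of the complex III core protein Uqcrc1, at chr9:108936398-108936697 on the plus strand, holds 2 NRF1 matches close to the start.
Uqcrc1: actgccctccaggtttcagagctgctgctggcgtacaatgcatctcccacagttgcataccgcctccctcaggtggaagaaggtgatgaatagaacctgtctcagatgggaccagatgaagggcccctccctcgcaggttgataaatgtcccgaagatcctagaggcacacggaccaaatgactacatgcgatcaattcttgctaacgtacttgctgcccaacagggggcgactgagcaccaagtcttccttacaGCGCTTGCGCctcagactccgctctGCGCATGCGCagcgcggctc
That of Cox8a, a small subunit of complex IV, at chr19:7217567-7217866 on the minus strand, holds 2 ETS matches.
Cox8a: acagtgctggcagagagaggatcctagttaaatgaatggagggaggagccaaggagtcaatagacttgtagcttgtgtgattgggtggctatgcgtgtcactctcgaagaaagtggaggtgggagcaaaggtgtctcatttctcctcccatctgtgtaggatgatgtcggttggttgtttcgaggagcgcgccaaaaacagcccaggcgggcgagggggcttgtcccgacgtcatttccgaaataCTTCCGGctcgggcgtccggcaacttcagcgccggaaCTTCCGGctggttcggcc
That of Cox5a, a complex IV subunit, at chr9:57520982-57521281 on the plus strand, has no match to these letters in this window.
Cox5a: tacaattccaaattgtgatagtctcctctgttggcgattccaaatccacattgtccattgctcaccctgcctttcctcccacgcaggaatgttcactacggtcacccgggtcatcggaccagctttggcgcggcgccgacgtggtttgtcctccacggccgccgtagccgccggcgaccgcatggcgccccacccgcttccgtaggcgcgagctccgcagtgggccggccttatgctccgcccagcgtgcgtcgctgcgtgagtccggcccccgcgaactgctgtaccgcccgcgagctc
That of Ndufa1, a small membrane subunit of complex I, at chrX:37191189-37191488 on the minus strand, has none either.
Ndufa1: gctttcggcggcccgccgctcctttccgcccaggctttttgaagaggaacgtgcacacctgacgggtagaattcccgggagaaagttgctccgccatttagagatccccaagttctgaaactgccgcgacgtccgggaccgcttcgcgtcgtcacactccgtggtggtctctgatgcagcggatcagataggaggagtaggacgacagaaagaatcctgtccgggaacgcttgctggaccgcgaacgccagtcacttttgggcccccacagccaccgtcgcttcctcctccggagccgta
That of Atp5if1, the inhibitor of ATP synthase, at chr4:132535365-132535664 on the minus strand, was matched by its older symbol Atpif1 and holds 1 YY1 and 1 NRF1 match.
Atp5if1: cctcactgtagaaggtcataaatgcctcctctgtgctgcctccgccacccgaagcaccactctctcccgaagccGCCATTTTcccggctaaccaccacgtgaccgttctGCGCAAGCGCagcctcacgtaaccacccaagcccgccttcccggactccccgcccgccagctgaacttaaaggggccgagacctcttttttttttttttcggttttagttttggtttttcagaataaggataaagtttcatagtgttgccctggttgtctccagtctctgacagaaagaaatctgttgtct

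The NRF1 motif was found in 18 of the 71 matched members' promoters (25.4%), against 5.19% of the 27025 genes with a promoter of this length. The ETS motif was in 16 of 71 (22.5%), against 9.93% of genes, and the YY1 motif in 18 of 71 (25.4%), against 6.96% of genes. A match is a description of the letters and not evidence of binding.

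Of the 90 members, 82 reached at least 1 TPM in at least 5 libraries and were tested, namely 40, 4, 8, 12 and 18 of complexes I to V. The 8 others were mostly forms known from other tissues: Cox6a2, Cox7a1 and Cox8b of striated muscle, Cox4i2 of lung, Cox7b2 and Cox8c of testis, Ndufa4l2, which hypoxia induces, and Ndufb11b. Their highest mean was 0.496 TPM (Cox7a1), and Cox7b2 and Ndufb11b were listed at 0 in every library. The ubiquitous counterparts averaged 84.1 TPM for Cox4i1, 127 TPM for Cox6a1, 39.1 TPM for Cox7a2, 24.5 TPM for Cox7b and 169.7 TPM for Cox8a. The testis form Cox6b2 was an exception, with a mean of 6.39 TPM beside 119.5 TPM for its ubiquitous counterpart Cox6b1. Some low members are near-identical copies of others (Ndufs6b and Ndufb4c are processed pseudogenes in GENCODE M21), so their values are uncertain.

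Levels per length differed between and within complexes. Complex IV had the highest typical level, with a median of 55.4 TPM over its tested members, against 26.1 TPM for complex III, 25.7 TPM for complex V, 19.7 TPM for complex II and 12.8 TPM for complex I. Cox8a was the highest member of all, followed by Cox6a1, Cox6b1 and Ndufa1 (119 TPM). Within complex I, Ndufa1, Ndufa2 (59.9 TPM) and Ndufa3 (58.4 TPM) led, and Ndufb8 (2.69 TPM), Ndufb2 (2.24 TPM) and Ndufs6b (1.18 TPM) were lowest of those tested. Ndufa4, grouped here with complex I by its name and since then assigned to complex IV, averaged 41.7 TPM. In complex II the catalytic flavoprotein Sdha (28.3 TPM) and the membrane anchor Sdhd (25.6 TPM) exceeded the iron-sulfur subunit Sdhb (13.8 TPM) and the other anchor Sdhc (5.94 TPM). In complex III the hinge protein Uqcrh (60.2 TPM) was highest, before Uqcr10 (37.7 TPM) and the Rieske iron-sulfur protein Uqcrfs1 (30.2 TPM). In complex V the catalytic-head subunits Atp5f1a (80.7 TPM) and Atp5f1b (57.6 TPM) and the inhibitor Atp5if1 (66.3 TPM) were highest. The c subunit of its rotor is made from 3 genes, of which Atp5mc2 (34.2 TPM) and Atp5mc3 (24.5 TPM) exceeded Atp5mc1 (2.77 TPM). By summed TPM, complex I held 31.3% of the members' total, complex II 3.09%, complex III 9.84%, complex IV 34.3% and complex V 21.5%.

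**Figure D1:**
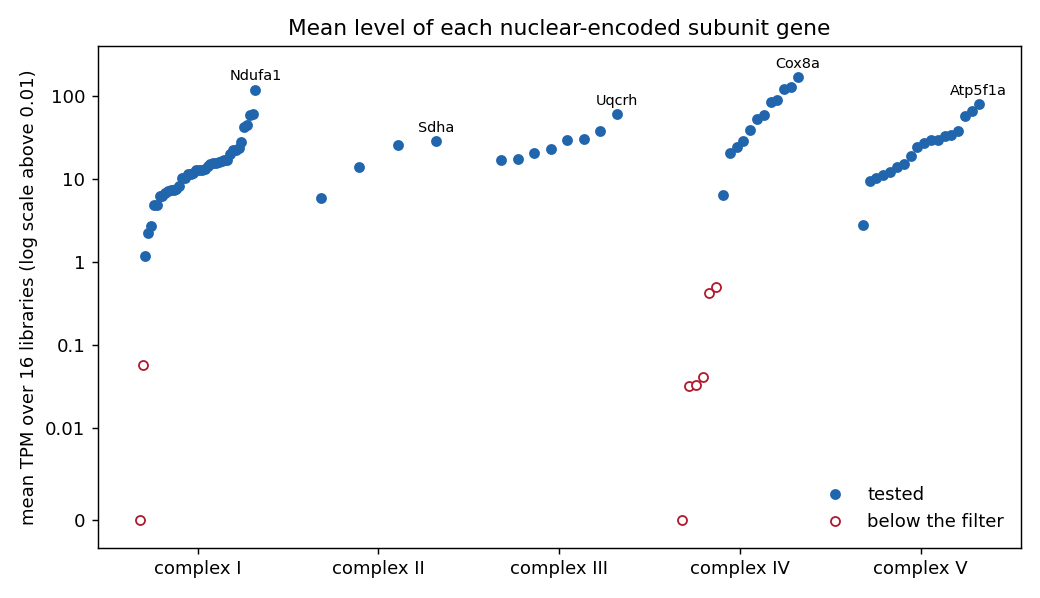
Mean TPM over 16 libraries of each subunit (log axis above 0.01 TPM), by complex, 1 point per gene; filled points were tested and open points (8 genes) fell below the filter. Complex IV has the highest median (55.4 TPM) and complex I the lowest (12.8 TPM), and Cox8a is the highest point (169.7 TPM).

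The 13 subunits encoded in the mitochondrial genome were far more abundant. Their sum was 45887 ± 13517 TPM in HFD+L-NAME+NO2-OA, 42972 ± 12224 TPM in HFD+L-NAME and 43886 ± 9560 TPM in chow libraries (SD, n = 6, 5 and 5), or 2.28 to 6.19% of TPM in a library. The catalytic complex IV subunit mt-Co1 was highest with a mean of 7864 TPM, and mt-Nd6 lowest with 652 TPM. The ratio of mitochondrially to nuclear-encoded subunits averaged 22.1 ± 4.66 in HFD+L-NAME+NO2-OA, 17.96 ± 3.11 in HFD+L-NAME and 18.03 ± 6.34 in chow libraries. Its ranges overlapped, at 15.9 to 28.4, 14.0 to 20.6 and 12.3 to 26.9, in the same order of groups.

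Most subunits were high or low in the same libraries, and a subset went another way. On the log2(TPM + 1) scale, the SD over the 16 libraries was 1.18 for Atp5if1, 1.03 for Cox5a and 1.00 for Ndufa1, against 0.33 for Atp5mj and 0.39 for Uqcrh. Cox5a stood at 8.22, 47.4 and 94.5 TPM as the lowest, median and highest HFD+L-NAME+NO2-OA libraries, at 33.1, 62.9, 171, 52.4 and 15.3 TPM in HFD+L-NAME replicates 1 to 5, and at 24.6, 43.1, 29.6, 31.7 and 84.4 TPM in chow replicates 1 to 5. The highest value, in HFD+L-NAME replicate 3, was far above the other 4 of its group, and the 3 groups overlapped. Sdha stood at 10.0, 28.9 and 39.1 TPM as the lowest, median and highest HFD+L-NAME+NO2-OA libraries, at 25.3, 37.8, 15.5, 33.6 and 10.4 TPM in HFD+L-NAME replicates 1 to 5, and at 41.0, 49.8, 14.7, 39.7 and 27.1 TPM in chow replicates 1 to 5. HFD+L-NAME replicate 3, the highest library for Cox5a, was thus among the low ones for Sdha. The ratio of Cox5a to Sdha was 0.687 to 3.12 in HFD+L-NAME+NO2-OA libraries, 1.31, 1.66, 11.0, 1.56 and 1.48 in HFD+L-NAME replicates 1 to 5, and 0.600 to 3.12 in chow libraries, an 18.4-fold range over all 16.

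The same library stood apart over the whole chain. In HFD+L-NAME replicate 3, complex IV summed to 1395 TPM, the highest of all libraries, while complex II summed to 40.7 TPM in a range of 32.8 to 114 TPM. The ratio of these sums was 34.3 there and 7.85 to 15.2 in the other 15 libraries. Among members, Ndufa1 reached 369 TPM and Uqcrc1, a core protein of complex III, 6.88 TPM in that library, a ratio of 53.6, and this ratio was lowest (1.17) in HFD+L-NAME+NO2-OA replicate 2.

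Deviations of each gene from its median library were also taken after rescaling to protein-coding TPM, which removes the differences in protein-coding share. Haemoglobin genes are protein-coding and stay in that total, so their rise in a library still lowers the other genes on this scale. On that scale HFD+L-NAME replicate 3 had 8 members more than 1 above and 29 members more than 1 below their medians (log2 units). The SD of its members' deviations was 0.86, against 0.20 to 0.60 in the other libraries, and the members ranged from -1.81 for Ndufb4 to 1.63 for Cox5a. HFD+L-NAME+NO2-OA replicate 1, in which haemoglobin took 30.7% of TPM, had 81 of 82 members below their medians, by a median of -0.93, and protein-coding genes as a whole stood at -0.95 there. Chow replicate 2 had 79 members above their medians (median 0.46, all protein-coding genes 0.35), and chow replicate 1 had 72 (median 0.57, all protein-coding genes 0.44).

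**Figure D2:**
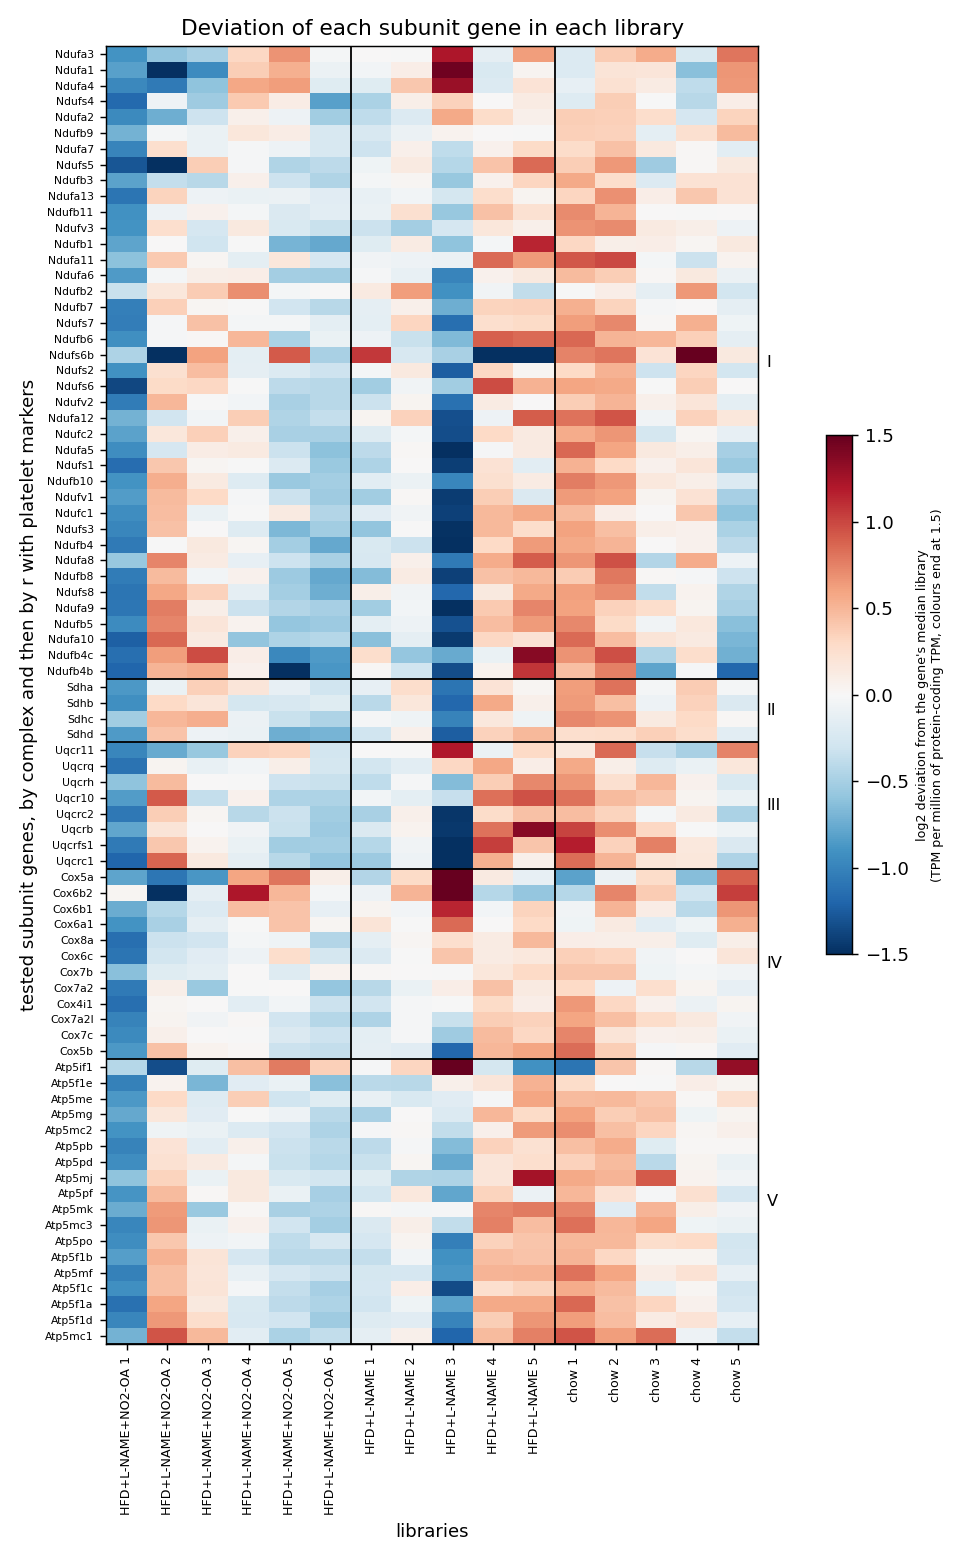
Deviation (log2) of each tested subunit from its own median library, on protein-coding TPM, with genes in rows by complex and libraries in columns by group; colours end at 1.5 either way. HFD+L-NAME replicate 3 mixes high and low subunits (-1.81 to 1.63), and HFD+L-NAME+NO2-OA replicate 1 is low throughout (81 of 82 members).

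Several subunits that were high in HFD+L-NAME replicate 3 followed platelet transcripts. That library also had the highest platelet sum, so part of the relation follows from how these subunits were singled out. The summed TPM of 5 platelet genes (Ppbp, Pf4, Gp9, Itga2b, Gp1ba) was 311, 7140 and 19951 TPM as the lowest, median and highest HFD+L-NAME+NO2-OA libraries, 5798, 11412, 30969, 5724 and 1440.3 TPM in HFD+L-NAME replicates 1 to 5, and 1670, 7290.4, 4949, 4130 and 17848.5 TPM in chow replicates 1 to 5. Platelets are cell fragments that carry RNA but no nucleus. Atp5if1 stood at 8.15, 62.6 and 109.5 TPM as the lowest, median and highest HFD+L-NAME+NO2-OA libraries, at 52.5, 75.9, 196, 46.8 and 10.4 TPM in HFD+L-NAME replicates 1 to 5, and at 23.6, 72.4, 29.1, 43.9 and 133 TPM in chow replicates 1 to 5. Ndufa1 stood at 15.1, 107 and 191 TPM, at 107, 134, 369, 98.7 and 41.7 TPM, and at 91.4, 128, 67.5, 78.6 and 175 TPM in the same order of groups. Both were highest in HFD+L-NAME replicate 3 and lowest in HFD+L-NAME+NO2-OA replicate 2, as was the platelet sum, and their groups overlapped. The relation was examined after the members' values were seen, with log2(TPM + 1) of each gene against log2 of the platelet sum over 16 libraries, and with permutation p-values adjusted by the Benjamini-Hochberg method over all 16365 tested genes.

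Cox5a followed the platelet sum most closely, with Pearson's r 0.97 and Spearman's rho 0.98 (two-sided permutation test, adjusted p = 0.000239 for r, from a p of 1e-05, the smallest that 100000 permutations can give). Without the 2 libraries farthest from the median platelet sum, HFD+L-NAME+NO2-OA replicate 2 and HFD+L-NAME replicate 3, r was 0.96. Within the 11 libraries of the lower run of library numbers it was 0.97, with deviations from group means 0.97, and on protein-coding TPM 0.92. The higher run held 5 libraries, too few for a value of its own. The inhibitor Atp5if1 gave an r of 0.96, and the complex I subunits Ndufa3, Ndufa1 and Ndufa4 gave 0.95, 0.95 and 0.94. Complex IV subunits Cox6b2, Cox6b1 and Cox6a1 gave 0.93, 0.91 and 0.87, and Uqcr11, a small subunit of complex III, 0.85. For these 9 genes r was 0.66 to 0.96 without the farthest libraries, 0.78 to 0.97 within the lower run and 0.66 to 0.94 on protein-coding TPM. On protein-coding TPM without the farthest libraries, r was 0.47 for Uqcr11, 0.51 for Cox6a1, 0.63 for Cox6b1 and 0.68 for Ndufa3, so that these relations rest in part on those 2 libraries, against 0.925 for Cox5a and 0.92 for Atp5if1. Ndufs4 and Cox8a also passed for r and rho (r = 0.81 each), but their r was 0.40 and 0.31 on protein-coding TPM, so these 2 values depend on the scale.

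Other members gave lower values, with a median r of 0.31 over all 82. Sdha had r = 0.38 and rho = 0.09 (permutation test, adjusted p = 0.503 for r), with r at 0.28 without the farthest libraries, -0.28 within the lower run and -0.30 on protein-coding TPM. Uqcrc1 had r = -0.09 and rho = -0.13 (permutation test, adjusted p = 0.914 for r), with r at 0.02 without the farthest libraries, -0.52 within the lower run and -0.63 on protein-coding TPM, or -0.35 there without the farthest libraries. The median r of tested protein-coding genes on protein-coding TPM was -0.45, and that of the members -0.37. By complex, r exceeded 0.7 for 6 of 40 members of complex I, 0 of 4 of complex II, 1 of 8 of complex III, 6 of 12 of complex IV and 1 of 18 of complex V. On protein-coding TPM these counts were 3, 0, 0, 3 and 1. In all, 14 of 82 members (17.1%) did so, beside 8.63% of all tested genes, and on protein-coding TPM 7 of 82 (8.54%), beside 6.20% of tested protein-coding genes. On protein-coding TPM the members' share was thus near that of all genes, and such a relation was not particular to the subunits. An adjusted permutation p under 0.05 for r was reached by 14 members, beside 9.89% of all tested genes, and for both r and rho by 11 members, beside 8.44%.

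**Figure D3:**
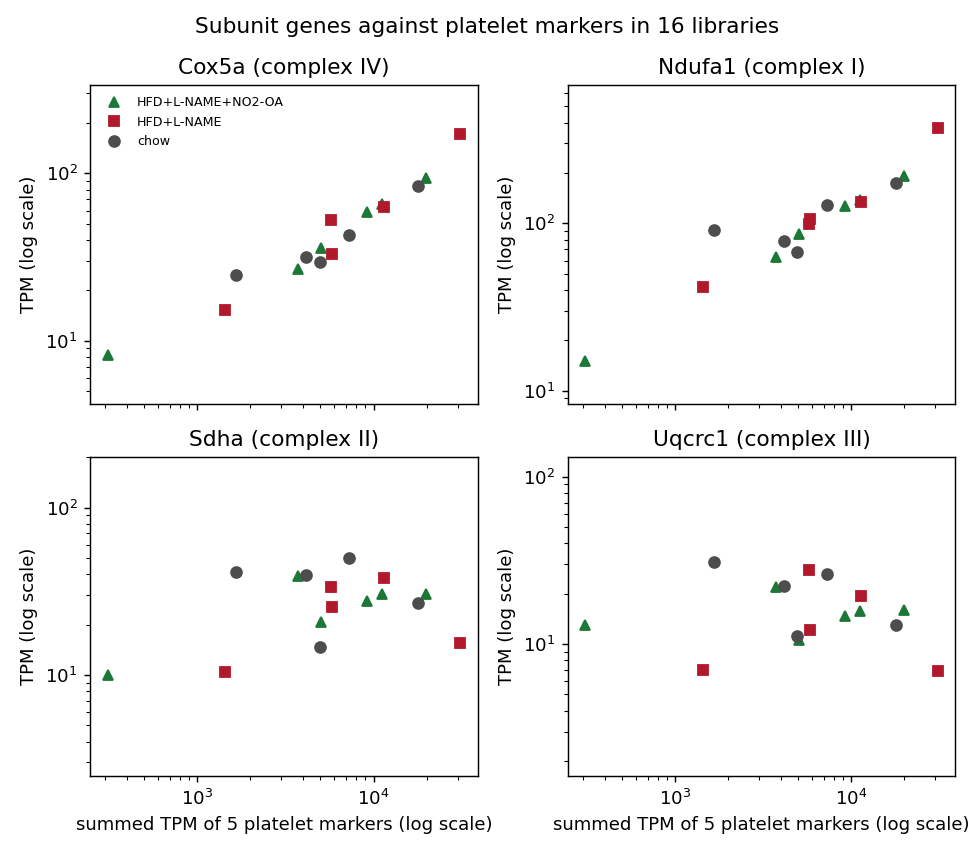
TPM of Cox5a, Ndufa1, Sdha and Uqcrc1 against the summed TPM of 5 platelet genes (log axes), 1 point per library, coloured by group. Cox5a (r = 0.97) and Ndufa1 (r = 0.95) run along a line in all 3 groups, and Sdha (r = 0.38) and Uqcrc1 (r = -0.09) scatter.

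HFD+L-NAME was first set against chow, which bears on the disease regimen. No member passed the test: 0 of 82 reached an adjusted p under 0.05 in the limma fit to log2(TPM + 1) of all libraries. In that fit 0.00611% of the 16365 tested genes passed. Limma-voom on recovered reads called 0 members as well, and 0 of all tested genes. At an unadjusted p under 0.05 stood 1 member on the lower side, Ndufs6b, beside 2.74% of all genes on that side, and none on the higher side, where 0.189% of all genes stood. On the lower side stood 0 of 82 members with TPM rescaled by the median of ratios, beside 2.21% of all genes. On protein-coding TPM there were 0 of 80, beside 2.62%, and with limma-voom 1 of 82 (Sdhc), beside 4.91%. The fit on protein-coding TPM left out members that GENCODE M21 does not type as protein-coding, Ndufs6b among them, and applied the filter anew. Those 80 members are therefore a different set from the 82, and the 0 of 80 could not include Ndufs6b. All genes on that scale means the 12086 protein-coding genes tested there. Ndufs6b, a near-copy of a complex I gene, had 0 to 6 reads in a library. No member's groups failed to overlap in any of the 3 comparisons. The share of all tested genes whose groups overlapped was not computed, so this is no result particular to the members. The standard error of a member's log2 difference was 0.31 to 0.66, and the smallest adjusted p of a member was 0.816 (limma).

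Complex II lay lowest in this comparison, with a median log2 difference of -0.44 and all 4 subunits below 0. Sdha averaged 24.5 ± 11.6 TPM in HFD+L-NAME and 34.4 ± 13.7 TPM in chow libraries (SD, n = 5 each), a log2 difference of -0.51 ± 0.43 (SE), and 0 of 5 HFD+L-NAME libraries exceeded the chow median. The same 0 of 5 held for members of other complexes, such as Ndufa6, Ndufs7 and Atp5me, so it is not particular to complex II. Sdhc averaged 4.87 ± 2.09 TPM in HFD+L-NAME and 7.32 ± 2.62 TPM in chow libraries (log2 difference -0.52 ± 0.35), and Sdhb and Sdhd gave -0.38 ± 0.40 and -0.34 ± 0.36. None of these passed the test. In complex III, the core protein Uqcrc1 stood at 12.1, 19.4, 6.88, 27.6 and 6.97 TPM in HFD+L-NAME replicates 1 to 5 and at 31.0, 26.2, 11.2, 22.3 and 12.9 TPM in chow replicates 1 to 5, which overlapped (log2 difference -0.57 ± 0.40). The Rieske iron-sulfur protein Uqcrfs1 gave -0.57 ± 0.42, and the hinge protein Uqcrh -0.26 ± 0.36. Complex I had a median of -0.29, with Ndufa5 at -0.57 ± 0.38 and Ndufa10 at -0.52 ± 0.38, both accessory subunits. Complex V had a median of -0.27, with Atp5f1a at -0.31 ± 0.39 and the inhibitor Atp5if1 at 0.08 ± 0.66. Complex IV had a median of -0.07, with Cox5a, the largest positive member, at 0.35 ± 0.58 and Cox8a at 0.09 ± 0.43.

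All tested genes had a median of -0.29. The medians of complexes I, III and V were close to it, all 4 members of complex II lay below it, and 2 of 12 members of complex IV did. Of the members 84.1% were below 0, beside 82.1% of all tested genes. The direction depended on the scale: with TPM rescaled by the median of ratios, all tested genes had a median of 0.02, members 0.10 with 61 of 82 above 0, and complexes I, III, IV and V turned to 0.09, 0.12, 0.31 and 0.10. On protein-coding TPM the median of the 80 members tested was -0.26, with 65 below 0 (all genes -0.31). Within the lower run of library numbers, complexes I to V stood at 0.17, 0.05, 0.19, 0.52 and 0.295 beside an all-gene median of 0.13. Without HFD+L-NAME replicate 5 or chow replicate 2 alone, complex IV turned to 0.20 and 0.02. Less the all-gene median, complex II stood at -0.37 to -0.08 over 32 alternative settings, each of them below 0. Summed markers of T cells had a median of 150 TPM (102 to 392) in HFD+L-NAME and 369 TPM (175 to 490.2) in chow libraries, and those of NK cells 35.9 TPM (12.7 to 103) in HFD+L-NAME and 83.7 TPM (36.8 to 149) in chow libraries. Each list held 5 genes, and the median log2 difference of its genes was -1.04 for T cells, -1.09 for NK cells, -0.39 for B cells, 0.08 for monocytes, 0.69 for neutrophils, 0.46 for platelets and 1.11 for red cells. The part of these cells in the values of the subunits was not tested.

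HFD+L-NAME+NO2-OA was next set against HFD+L-NAME, which bears on the addition of NO2-OA and shares the HFD+L-NAME libraries with the comparison above. No member passed the test: 0 of 82 passed in the limma fit, in which 0.00611% of tested genes passed, and 0 stood at an unadjusted p under 0.05, beside 0.483% of all genes on the higher and 0.464% on the lower side. Counts at an unadjusted p under 0.05 depended on the scale and were all on the lower side. With TPM rescaled by the median of ratios there were 6 of 82 members (Ndufb1, Ndufs5, Ndufb7, Uqcr10, Atp5mc2 and Atp5mk), beside 1.53% of all genes. On protein-coding TPM there were 2 of 80 (Ndufs5 and Cox6a2), beside 0.538% of the 12086 protein-coding genes tested. Cox6a2 was below the filter in the main fit and entered only after rescaling, so its value is uncertain. With limma-voom there was 1 of 82 (Cox8a), beside 0.361%. None of these fits called a member, or any other tested gene, at the adjusted threshold. The member of smallest p in the fit to log2(TPM + 1) was Atp5mk, a small membrane subunit of ATP synthase, at 6.29, 8.41 and 9.99 TPM as the lowest, median and highest HFD+L-NAME+NO2-OA libraries and at 10.4, 11.4, 12.4, 18.2 and 6.57 TPM in HFD+L-NAME replicates 1 to 5. All 6 libraries with NO2-OA were below the HFD+L-NAME median, but HFD+L-NAME replicate 5 lay among them, and the log2 difference was -0.41 ± 0.31. Complex IV had a median log2 difference of -0.18, with 11 of 12 members below 0. Cox8a averaged 148 ± 54.2 TPM in HFD+L-NAME+NO2-OA and 191 ± 64.1 TPM in HFD+L-NAME libraries (SD, n = 6 and 5), a log2 difference of -0.39 ± 0.41. Cox5a gave -0.37 ± 0.56 and Ndufa1 -0.53 ± 0.55, and the highest HFD+L-NAME value of each was in replicate 3. The 5 platelet markers were also below 0 here, with a median log2 difference of -0.51, and the 5 red cell markers above 0, with a median of 0.94. The medians of the other lists were 0.57 for NK cells, 0.41 for T cells, 0.06 for B cells, -0.10 for monocytes and -0.18 for neutrophils. The 1 tested marker of resident peritoneal macrophages stood at -2.99, which describes a few libraries only. Its 5-gene list summed to at most 0.917 TPM in any HFD+L-NAME+NO2-OA library, so it passed the filter through the other groups alone. In HFD+L-NAME the list summed to 434 and 554 TPM in replicates 1 and 5, with a group median of 1.44 TPM. The part of all these cells in the subunits' values was not tested. Ndufs5 and Ndufb1, accessory subunits of complex I, gave -0.52 ± 0.43 and -0.37 ± 0.33, and Uqcr11 of complex III -0.45 ± 0.48. Complexes I, III and V had medians of -0.01, -0.12 and -0.03. In complex II, with a median of 0.11, Sdhc gave 0.22 ± 0.34, Sdha 0.13 ± 0.41, Sdhb 0.09 ± 0.38 and Sdhd -0.08 ± 0.34.

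Relative to all tested genes, whose median was 0.08, 67 of the 82 members lay on the lower side in this comparison. Below 0 were 58.5% of members and 35.3% of all tested genes. With the median of ratios the members' median was -0.20 with 73 below 0 (all genes -0.03), and on protein-coding TPM -0.17 with 69 of 80 below 0 (all genes -0.01). The sign of a complex's own median turned in 8, 7, 2, 1 and 5 of 32 alternative settings for complexes I to V, that of complex IV without HFD+L-NAME+NO2-OA replicate 2 (0.06). Less the all-gene median, complexes I, III, IV and V stood below 0 in each of the 32 settings, complex IV at -0.54 to -0.03 and complex I at -0.12 to -0.02. The members' summed share of protein-coding TPM averaged 0.522 ± 0.117% in HFD+L-NAME+NO2-OA, 0.650 ± 0.0980% in HFD+L-NAME and 0.688 ± 0.0868% in chow libraries (SD, n = 6, 5 and 5). With haemoglobin genes left out of that total, a step chosen after the values were seen, the shares were 0.674 ± 0.0342%, 0.739 ± 0.0667% and 0.745 ± 0.0638%, in the same order. Leaving out haemoglobin raises every share by construction, and no test was made of these shares.

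HFD+L-NAME+NO2-OA was last set against chow, with libraries shared with both comparisons above. No member passed the test: 0 of 82 passed in the limma fit, as did 0% of the 16365 tested genes, and 0 members stood at an unadjusted p under 0.05, beside 0.428% of all genes on the higher and 2.37% on the lower side. At an unadjusted p under 0.05 and on the lower side stood 3 of 80 members on protein-coding TPM (Ndufa2, Ndufb3 and Atp5mc2). Beside these stood 2.11% of the protein-coding genes tested on that scale. With the median of ratios there were 0 of 82, beside 1.84%, and with limma-voom 1 of 82 (Atp5mc2), beside 2.42%. None of these fits called a member, or any other tested gene, at the adjusted threshold. The Rieske protein Uqcrfs1 stood at 15.4, 25.1 and 34.0 TPM as the lowest, median and highest HFD+L-NAME+NO2-OA libraries and at 64.9, 38.4, 27.3, 36.6 and 25.4 TPM in chow replicates 1 to 5. All 6 libraries with NO2-OA were below the chow median of Uqcrfs1, the groups overlapped, and the log2 difference was -0.60 ± 0.40. Atp5mc2, the most abundant c subunit gene, averaged 28.6 ± 8.41 TPM in HFD+L-NAME+NO2-OA and 41.4 ± 12.1 TPM in chow libraries (log2 difference -0.53 ± 0.35). Ndufa12 of complex I gave -0.51 ± 0.35, Uqcrb of complex III -0.51 ± 0.38, Ndufb1 -0.44 ± 0.33 and Ndufs6b -0.51 ± 0.35. In complex II, Sdhd gave -0.41 ± 0.34, Sdha -0.37 ± 0.41, Sdhc -0.30 ± 0.34 and Sdhb -0.29 ± 0.38. Of the most abundant members, Cox6a1 gave -0.14 ± 0.46, Cox6b1 -0.15 ± 0.47, Atp5f1a -0.41 ± 0.38, Ndufa1 -0.32 ± 0.55, Cox8a -0.30 ± 0.41 and Uqcrh -0.26 ± 0.35, while Cox5a (-0.01 ± 0.56) and Atp5if1 (0.02 ± 0.63) stood at 0.

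In this comparison 80 of the 82 members had a log2 difference below 0, beside 82.7% of all tested genes, and the medians of complexes I to V were -0.33, -0.34, -0.36, -0.28 and -0.34. All tested genes had a median of -0.20, and 68 of the members lay below it. The members' median was -0.33 in the fit, -0.25 with limma-voom, -0.09 with the median of ratios (64 of 82 below 0, all genes -0.01) and -0.45 on protein-coding TPM (78 of 80 below 0, all genes -0.32). Within the lower run of library numbers, which left 3 chow libraries, complexes I to V stood at 0.13, 0.12, 0.08, 0.19 and 0.03 beside an all-gene median of 0.12; this was the 1 setting of 32 in which they were above 0. Haemoglobin genes, which stay in the protein-coding total, took a median of 7.51% of TPM (1.10 to 30.7%) in HFD+L-NAME+NO2-OA and 2.51% (0.141 to 7.67%) in chow libraries. The markers of T cells and NK cells had median log2 differences of -0.62 and -0.60, and those of neutrophils and red cells 0.78 and 2.05. The other medians were -0.33 for B cells, 0.02 for monocytes and -0.18 for platelets. The 1 tested marker of resident peritoneal macrophages stood at -2.80, and it passed the filter only through libraries without NO2-OA. Its list summed to 262 and 237 TPM in chow replicates 1 and 2, with a chow median of 1.57 TPM. The part of all these cells in the subunits' values was not tested.

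**Figure D4:**
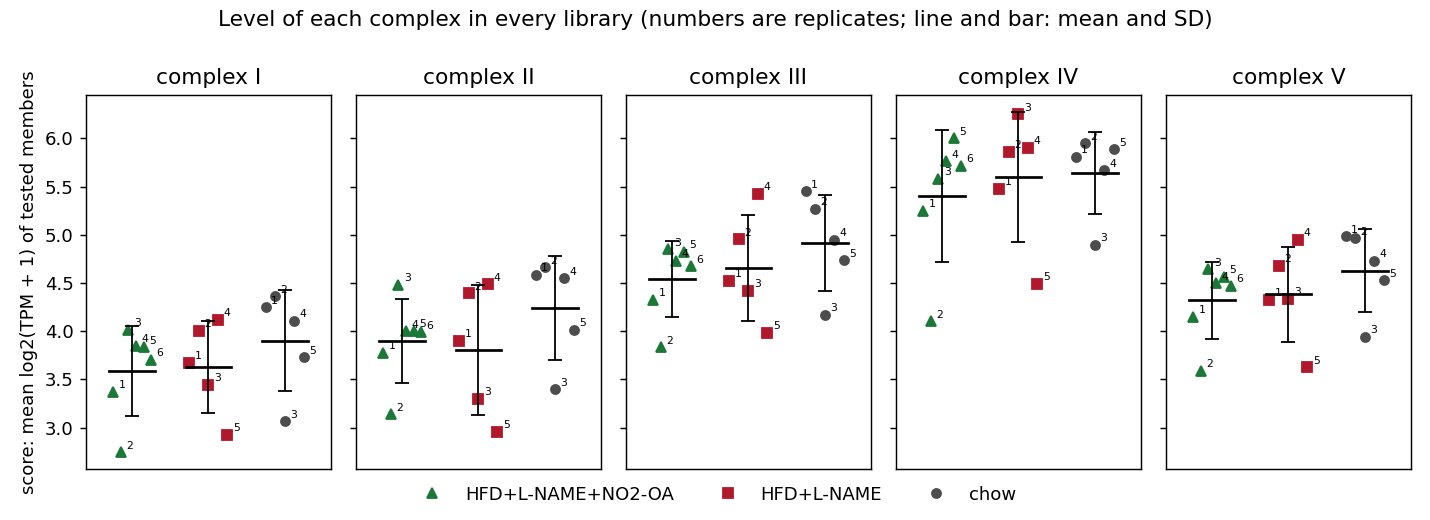
Mean log2(TPM + 1) of the tested members of each complex, 1 point per library, with group mean and SD (n = 6, 5 and 5, groups HFD+L-NAME+NO2-OA, HFD+L-NAME and chow). For complex II the means are 3.90 ± 0.44, 3.81 ± 0.67 and 4.24 ± 0.54, and the groups overlap in every complex.

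**Figure D5:**
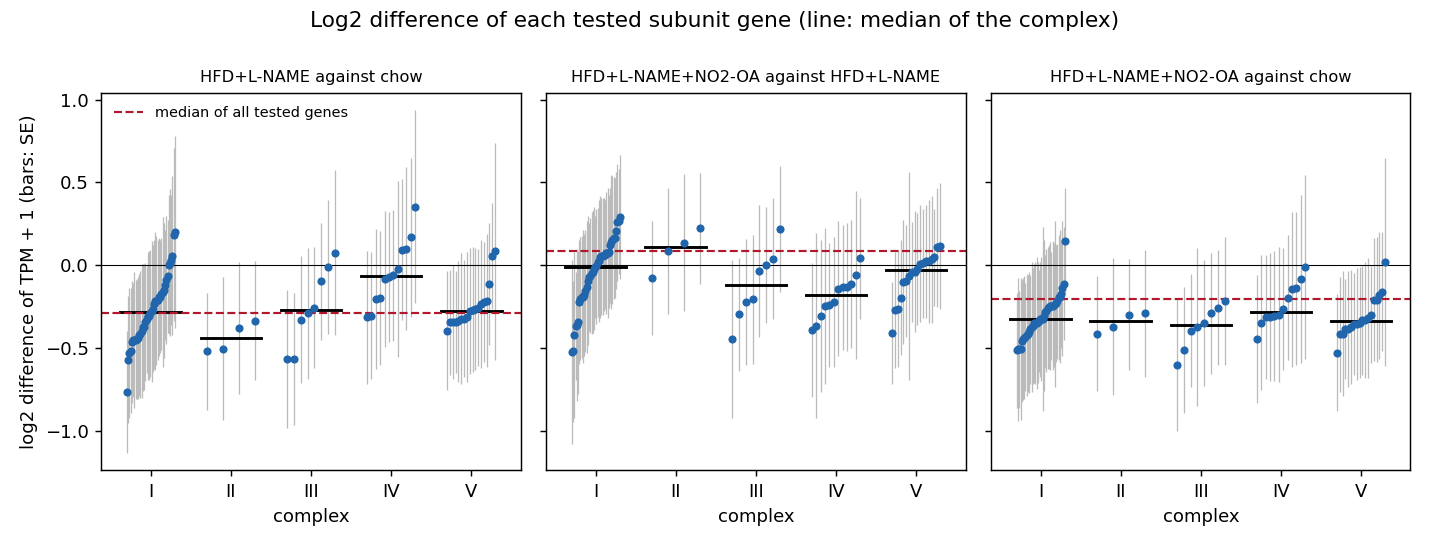
Log2 difference of each tested subunit by complex in the 3 comparisons, 1 point per gene with its SE, and with the median of each complex (black line) and of all tested genes (dashed line). No point passed the test, and 80 of 82 points lie below 0 where HFD+L-NAME+NO2-OA is set against chow, beside 82.7% of all tested genes.

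Other mitochondrial genes, from lists chosen by function, gave no call in any comparison either. In HFD+L-NAME against chow, all 13 citric acid cycle genes were below 0 (median -0.35), as were all 14 electron carrier and coenzyme Q genes (-0.26), all 11 regulators of mitochondrial biogenesis (-0.34) and 41 of 43 assembly factors (-0.27), beside 82.1% of all tested genes. The citric acid cycle enzyme Ogdh averaged 33.7 ± 13.0 TPM in HFD+L-NAME and 39.4 ± 14.1 TPM in chow libraries, and cytochrome c, Cycs, 11.0 ± 6.57 and 11.3 ± 4.18 TPM. The mitochondrially encoded subunits had a median of -0.13, with 13 of 13 below 0 and none below the all-gene median. Against HFD+L-NAME, HFD+L-NAME+NO2-OA had medians of 0.07 for the citric acid cycle, 0.07 for assembly factors, 0.13 for the regulators and 0.14 for the mitochondrially encoded subunits. Against chow these were -0.25, -0.27, -0.21 and -0.03. The list of outer membrane proteins, carriers and matrix chaperones had 12 of 14 genes below 0 (median -0.34) for HFD+L-NAME+NO2-OA and 11 of 14 (median -0.26) for HFD+L-NAME, each set against chow. Its most abundant genes, the matrix chaperones Hspd1 and Hspe1, lay on the other side of 0, with log2 differences of 0.64 ± 0.59 and 0.66 ± 0.59 for HFD+L-NAME+NO2-OA and 0.36 ± 0.61 and 0.53 ± 0.62 for HFD+L-NAME, and none passed the test.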

How the data were processed

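PBMCs were isolated over Ficoll with red cell lysis, frozen and thawed, and total RNA went into random-primed, depleted libraries, per the labels' protocols. The deposited values are TPM, which the authors made with bcl2fastq, Trim Galore, HISAT2 and featureCounts on builds named mm39 and hg38, per the submitters' processing notes; versions and annotation release are not given in the sources used here. Because TPM is relative, a rise in haemoglobin or noncoding RNA lowers all other values. Whole reads were recovered from the steps of the values for all 32629 genes above 0 (tolerance 0.001), and served limma-voom alone; they cover counting error only. Gene types and older symbols came from GENCODE M21.

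The 16365 genes with at least 1 TPM in at least 5 libraries were fitted with limma 3.58.1 in R 4.3.3 (trended variance, log2(TPM + 1), 1 coefficient per group, all 16 libraries, two-sided), and called at a Benjamini-Hochberg adjusted p under 0.05. The pseudocount of 1 understates differences of low genes. The procedure was tested on simulated data. Named genes were all of complex II, the highest member of each complex, the 6 smallest p of each comparison, tissue isoform sets, Atp5if1 and the 2 highest genes of each other list; Cox5a, Ndufa3, Ndufs4, Uqcr11 beyond its comparison, Ndufa2, Ndufb8, Ndufb2, Ndufb3, Ndufb4, Ndufb7, Uqcr10, Atp5f1b and Atp5mj were named after their values were seen. Members and lists were chosen with earlier results of these data known. Alternatives were other pseudocounts, filters, scalings, moderation, covariates and library subsets. The tables were handled and plots drawn in Python 3.11.15, numpy 2.4.6, pandas 2.3.3, scipy 1.17.1 and matplotlib 3.10.9, and data.table (its version was 1.17.8) was used in R.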

Additional observations from a re-analysis of the deposited data

Results flagged for a closer look

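Among 114 groups of values examined, 16 had 1 library apart from the rest by more than Dixon's limit. Examined in each group were the tested members named by rule and the score of each complex. The summed mitochondrially encoded subunits and the ratio of Cox5a to Sdha were examined too. Chance alone flags about 1 in 20 independent groups. These groups share the same 16 libraries, so their count cannot be set against that rate. Values are log2(TPM + 1) unless a ratio is named.

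In HFD+L-NAME+NO2-OA replicate 2, the inhibitor Atp5if1 stood at 3.19 (other libraries of the group 5.71 to 6.79), Cox6b2 at 0.459 (2.52 to 3.61), Cox7b at 3.25 (4.53 to 5.04), Atp5mc2 at 3.83 (4.76 to 5.23), Ndufb1 at 3.49 (4.31 to 4.72), Uqcrb at 3.42 (4.2 to 4.66) and Uqcrh at 5.11 (5.84 to 6.11). This library had 15.9% of TPM in protein-coding genes. HFD+L-NAME replicate 5, with 15.1%, was low for Cox7b at 3.63 (4.71 to 4.97), Atp5mc2 at 4.43 (5.11 to 5.38) and the sum of mitochondrially encoded subunits at 14.5 (15.4 to 15.8). Chow replicate 3, with 22.1%, was low for Cox8a at 6.74 (7.48 to 7.65), Ndufb1 at 4.03 (4.88 to 5.01), Ndufs5 at 2.27 (3.65 to 4.16) and the complex IV score at 4.9 (5.67 to 5.95). The part of the protein-coding share in these values was not tested.

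The 2 remaining values were high. Atp5mc1, the least abundant c subunit gene, in HFD+L-NAME+NO2-OA replicate 3 stood at 2.38 (1.58 to 1.76 in the others). The log2 ratio of Cox5a to Sdha was 3.47 in HFD+L-NAME replicate 3 (0.389 to 0.736 in the others), the library with the highest platelet marker sum. Cox5a was named after its values were seen, so this flag is a description only.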

How the results depend on the processing

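Across 15 alternative settings, 16 fits that each left out 1 library and 1 alternative added after the data were seen, 0 members were called in every setting and comparison. With the median of ratios, protein-coding TPM and limma-voom, 0 of all tested genes were called in any comparison. For these fits the count of 0 is therefore not particular to the members. Of the alternative values of calls and complex medians, 574 counted as having stayed and 2 as having moved. The counts of calls were all 0 and stayed for that reason, and only the complex medians were set against the spread between libraries. Both values that moved were of complex V in HFD+L-NAME against chow. They came to 0.295 within library numbers up to 2200 alone and without the libraries with Alox15 above 10 TPM. In this comparison both settings use the same libraries, which are fewer, and the cause was not tested beyond that. Of the values of named genes, 2940 stayed and 24 moved. The limit for complex medians and named genes was the SD between libraries within groups, which is wide beside the differences themselves. Complex IV in HFD+L-NAME against chow went from -0.07 to as high as 0.52, and its sign turned in 7 of 32 settings. It still counted as having stayed, so these counts do not show that a sign is stable. Leaving out 1 library at a time, the medians of complexes I to V ranged from -0.49 to -0.10, -0.67 to -0.22, -0.46 to -0.12, -0.24 to 0.20 and -0.46 to -0.08 for HFD+L-NAME set against chow. They ranged from -0.15 to 0.11, -0.13 to 0.30, -0.21 to 0.08, -0.47 to 0.06 and -0.18 to 0.12 with NO2-OA added to HFD+L-NAME, and from -0.53 to -0.16, -0.54 to -0.16, -0.54 to -0.22, -0.46 to -0.06 and -0.49 to -0.22 with chow as the control of the NO2-OA libraries. With the replicate block, 0 members were called, and complex I stood at -0.29, -0.00 and -0.35 in the 3 comparisons. Of 15 same-numbered pairs of libraries 3 correlated above 0.1 (range -0.51 to 0.51). Differently numbered pairs were not examined, so these values cannot show whether the samples were paired. Depth limits low members most, such as Ndufs6b with 0 to 6 reads.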
